A study of Mus musculus with 8 samples.

Results

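Of the 56483 alternative polyadenylation sites (APSs) counted in mouse gastrocnemius muscle, 6700 carried no gene in the deposited expression table. They were chosen as the rows whose gene identifier is a dash, and none of them had a gene symbol, a biotype or a transcript. They made up 11.9% of the APSs and held 2212114 reads, 9.33% of all reads. The other 49783 APSs were assigned to a gene and served as the comparison. WTTS-seq, a 3′-end sequencing method for whole transcriptomes, counted the reads that began next to the poly(A) tail of fragmented RNA. The 8 libraries came from 8 adult male mice, with 2 knockout (KO) and 2 wild-type (WT) mice in each of 2 models. AMPKα1 KO mice lacked AMPKα1, a catalytic subunit of the AMP-activated protein kinase that senses cellular energy, and were about 6 weeks old. AMPKα2 KO mice lacked AMPKα2, the other catalytic subunit, and were about 8 weeks old. No age is stated for the WT controls of either model. The labels give C57BL/6 as the strain of all 8 mice, while the methods give 129S2/SvPas for the AMPKα1 KO mice and C57BL/6 for the AMPKα2 KO mice. Model, strain and age therefore cannot be told apart where the AMPKα1 and AMPKα2 libraries are compared. The methods do not state whether the libraries of the 2 models were prepared or sequenced together. Library preparation and sequencing therefore cannot be told apart from model either.

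Most messenger RNAs end where the nascent transcript is cut downstream of a polyA signal such as AATAAA and a tail of adenines is added. A 3′ end outside annotated genes can mark a longer transcript end than the annotation holds, an unannotated RNA, a copy of a gene inserted elsewhere, or priming at a run of adenines inside a transcript. Ribosomal RNAs, spliceosomal small nuclear RNAs and small nucleolar RNAs are abundant structural RNAs that normally lack a long poly(A) tail.

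The sequences below carry the main patterns among the unassigned APSs. The most read unassigned APS lay at chr13:9834304 on the minus strand (GRCm38), 165 bases past the annotated end of Gm24187, a gene of 57 bases that GENCODE lists as a miRNA gene. A search of the GENCODE transcripts of at most 150 bases, made after the reads were seen, found 5 other genes listed as miRNA genes. Each shares a run of at least 20 bases with it. The listed type was taken as given, and which RNA the reads at these genes came from was not tested. The 6 genes are shown 5′ to 3′, with the bases inside such a shared run in capitals.
Gm24187, chr13:9834469-9834525, minus strand: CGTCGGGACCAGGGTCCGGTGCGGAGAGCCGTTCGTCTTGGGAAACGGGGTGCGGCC
Gm23935, chr16:11144125-11144181, plus strand: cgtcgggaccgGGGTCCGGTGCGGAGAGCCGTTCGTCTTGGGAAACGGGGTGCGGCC
Gm24245, chr4:139338304-139338360, plus strand: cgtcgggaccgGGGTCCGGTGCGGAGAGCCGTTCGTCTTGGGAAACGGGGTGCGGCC
Gm24270, chr9:56223715-56223771, minus strand: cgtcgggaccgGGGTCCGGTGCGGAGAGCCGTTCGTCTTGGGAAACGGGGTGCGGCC
Gm23388, chr8:85112012-85112068, minus strand: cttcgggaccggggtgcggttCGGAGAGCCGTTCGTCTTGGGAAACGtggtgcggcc
Gm25911, chr1:167340369-167340424, minus strand: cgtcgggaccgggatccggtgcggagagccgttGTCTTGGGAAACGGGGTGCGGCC

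Other unassigned APSs lay within a few bases of the end of a small RNA gene, and 2 of these genes are shown with their last 10 bases in capitals, next to which the APS lies. Gm22513 is an snRNA gene with the U1 sequence, and its APS at position 54696948 lies 3 bases past its end. The gene n-R5s194 encodes 5S rRNA of the large ribosomal subunit, and its APS at position 4339122 lies 6 bases past its end.
Gm22513, chr12:54696782-54696945, plus strand: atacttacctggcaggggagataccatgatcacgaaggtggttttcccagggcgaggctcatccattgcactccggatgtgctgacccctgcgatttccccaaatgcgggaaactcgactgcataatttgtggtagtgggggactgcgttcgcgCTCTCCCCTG
n-R5s194, chr3:4338998-4339116, plus strand: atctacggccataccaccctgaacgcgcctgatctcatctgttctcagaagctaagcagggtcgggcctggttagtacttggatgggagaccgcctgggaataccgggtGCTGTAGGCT

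The most read unassigned APS of the AMPKα1 libraries lay in an exon that GENCODE gives to the lincRNA gene 1700020I14Rik. The 100 bases of the exon that end at this APS are shown with the polyA signal AATAAA in capitals, 25 bases before the site.
1700020I14Rik, chr2:119607399-119607498, plus strand: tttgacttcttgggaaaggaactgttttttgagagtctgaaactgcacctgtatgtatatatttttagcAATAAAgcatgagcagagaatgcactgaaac

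The deposited libraries held between 2311242 and 3549156 reads on APSs. Muscle was clear from its markers, since Ckm, Acta1, Myh4, Tnnt3, Mylpf and Pvalb together reached 72424 to 107957 CPM (reads scaled to a common library size) in the AMPKα1 libraries and 42085 to 52441 CPM in the AMPKα2 libraries. The fibroblast markers Col1a1, Col3a1 and Dcn summed to 7182 to 13151 CPM and 1162 to 1660 CPM in the same libraries, and their part in the differences between the models was not tested. With RNA of whole muscle, fewer cells of a type and less RNA per cell cannot be told apart. The targeted genes gave no check of the labels. Prkaa1, the gene of AMPKα1, had 0 and 82 reads in the AMPKα1 KO mice against 15 and 0 in their controls. Prkaa2, the gene of AMPKα2, had 40 and 71 reads in the AMPKα2 KO mice against 87 and 62 in their controls. APSs outside the deleted part of a gene do not report its loss. The common biological coefficient of variation was 156% in the AMPKα1 fit and 38.8% in the AMPKα2 fit, so replicates spread far more in the first model.

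The unassigned APSs were shallow. Their median was 36 reads over the 8 libraries against 50 for assigned APSs, and 34.6% against 50.5% of them reached 50 reads. Only 107 unassigned APSs reached 1000 reads, yet the deepest held 654481. On average 60.4% ± 5.80 (SD, n = 8 libraries) of unassigned and 62.9% ± 9.97 of assigned APSs had a read in a library. The unassigned share was lower in 5 of 8 libraries, a difference within the spread between libraries (two-sided exact paired permutation test over libraries, p = 0.367). It was higher than the assigned share on average in the AMPKα1 libraries, by 2.56 percentage points, and lower in the AMPKα2 libraries (-7.50 points), where the value was below the assigned one in 4 of 4. The median number of reads on a site with a read was 6.50 for unassigned and 14.2 for assigned APSs (exact paired permutation test, p = 0.0625, lower in 5 of 8 libraries). The gap lay in the AMPKα1 libraries, with 8.50 against 23.8 reads and a lower value in 4 of 4, while the AMPKα2 libraries had 4.50 against 4.75 and a lower value in 1 of 4.

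A small set of sites held most of the unassigned reads, and these reads came almost wholly from the AMPKα2 model. In the AMPKα1 model the APS past Gm24187 had 69 and 70 reads with KO against 56 and 115 with WT. In the AMPKα2 model it had 144572 and 122072 reads with KO against 210484 and 177043 with WT. The 2 models did not overlap at this site. Scaled to library size, the AMPKα2 groups overlapped, with 70794 and 39441 CPM for KO against 53743 and 72742 CPM for WT, and the log2 fold change was -0.20 ± 0.40 (SE, adjusted p = 0.917 in edgeR's quasi-likelihood test). The other 5 genes of the Gm24187 group also had an APS within 500 bases past their end, at 56 to 159 bases. Those past Gm24245 and Gm25911 were unassigned too, with 0 reads in every AMPKα1 library and 41 and 118 reads in the AMPKα2 libraries. The 3 others had been assigned to the protein-coding genes Zc3h7a, Zfp791 and Peak1. Their reads numbered 19, 22 and 0 in the AMPKα1 libraries and 52942, 6226 and 2159 in the AMPKα2 libraries. All 6 sites thus had far more reads in the AMPKα2 libraries, whether or not a gene name was attached. Those past Gm24245, Gm25911 and Gm24270, the last assigned to Peak1, had 0 reads in the AMPKα1 libraries. An APS entered the table only with a minimum sum of reads over all libraries. These sites are therefore in it through the AMPKα2 libraries alone, and their order between the models adds no support. Because the genes are near-identical copies, reads of the group could have been placed on any of them. The counts of a single copy are uncertain, and the 6 sites are not independent of each other.

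The second most read unassigned APS, at chr18:73533400 on the minus strand, lay 3 bases past n-R5-8s1, a gene for 5.8S rRNA of the large ribosomal subunit. It had 156 and 470 reads with AMPKα1 KO against 280 and 752 with WT, and 53267 and 48045 with AMPKα2 KO against 98193 and 77682 with WT. The APS past the U1-type gene Gm22513 had 0 reads in each AMPKα1 library and 780, 1113, 1172 and 732 in the AMPKα2 libraries. That past the 5S gene n-R5s194 had 0 reads in each AMPKα1 library and 490, 429, 633 and 433 in the AMPKα2 libraries. In all, 29 unassigned APSs lay 1 to 10 bases past the end of a small RNA gene on the same strand, 15 of them past snRNA genes and 12 past rRNA genes. No AMPKα1 library had a read at 28 of the 29. An APS entered the table only with at least 16 reads over the 8 libraries, so these 28 are in it through the AMPKα2 libraries alone. All 29 together had 287798 reads in the AMPKα2 libraries and 1658 in the AMPKα1 libraries. The site of n-R5-8s1 alone held 277187 of the former and all 1658 of the latter. From 500 bases before to 2000 bases past small RNA genes there were 75 unassigned APSs, with 4300 reads in the AMPKα1 libraries and 949339 in the AMPKα2 libraries. Of the 949339, the sites past Gm24187 and n-R5-8s1 held 654171 and 277187, so these totals mostly describe very few sites. Not every such site followed this pattern. The APS at Mir99a, a miRNA gene, had 35, 149, 78 and 121 reads in the AMPKα1 libraries and 10, 18, 28 and 14 in the AMPKα2 libraries.

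Some assigned structural RNAs stood in the same order between the models. The genes given here were not chosen by the rules for named sites. Rpph1, the RNA of RNase P, and Rmrp, the RNA of RNase MRP, had 0 reads in all 4 AMPKα1 libraries and 11166 to 33880 reads in the AMPKα2 libraries. Rn7sk, the 7SK RNA that holds back the elongation factor P-TEFb, had 1 read in the AMPKα1 libraries and 11377 to 20764 in the AMPKα2 libraries. The ribosomal gene Rn18s-rs5 took 0.0185% to 0.129% of the reads of the AMPKα1 libraries and 11.6% to 17.0% of those of the AMPKα2 libraries. Rpph1 and Rmrp are in the table through the AMPKα2 libraries alone. The cause of these differences between the models was not tested, and model, strain, age and library preparation cannot be told apart here.

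The 10 other most read unassigned APSs were not next to an annotated small RNA gene on their strand. Those at chr7:48137463, chr17:22876530, chr13:54190152 and chr15:86195102 had 0 reads in all 4 AMPKα1 libraries. The first of them had 10270 and 8240 reads with AMPKα2 KO against 18699 and 11591 with WT, and lay 692942 bases from its nearest assigned APS on the strand, in Csrp3, a muscle LIM protein gene. The APS at chr3:5860663 had 17, 0, 18 and 19 reads in the AMPKα1 libraries and 40293, 34637, 47500 and 28300 in the AMPKα2 libraries. At chr6:3201610 the AMPKα1 libraries had 0, 66, 25 and 1 reads and the AMPKα2 libraries 33835, 25008, 34815 and 27934. A pair of APSs on the minus strand of chromosome 2, at 22744858 and 22745096, had 38 and 139 reads in the AMPKα1 libraries and 68442 and 37331 in the AMPKα2 libraries. The APSs at chr3:62159204 and chr8:3754387 had 3 and 37 reads in the AMPKα1 libraries and 20331 and 18275 in the AMPKα2 libraries. The 12 most read unassigned APSs reached the top of a ranking over all 8 libraries through their AMPKα2 reads. The ranking thus favoured sites with more reads in that model.

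Over all 8 libraries the 10 most read sites held 64.2% of the unassigned reads, against 27.3% for the 10 most read assigned APSs. With the sites ranked in each model separately, the first 10 held 75.2% of the unassigned reads of the AMPKα2 libraries and the first 10 of the AMPKα1 ranking held 10.3% of theirs. In the AMPKα2 libraries 3 sites were enough to hold the first 50% of the unassigned reads, while the AMPKα1 libraries needed 410. Of all reads, unassigned APSs took 2.85% and 2.84% with AMPKα1 KO against 1.88% and 2.66% with WT. In the AMPKα2 model they took 17.4% and 15.3% with KO against 16.5% and 17.9% with WT. The 4 libraries of each model did not overlap (two-sided exact permutation test, n = 4 against 4, p = 0.0286, the smallest it allows). KO minus WT was 0.576 percentage points for AMPKα1 and -0.835 for AMPKα2 (exact permutation tests, n = 2 against 2, p = 0.33 and p = 0.67, and the design allows no p below the first). In the AMPKα2 model the groups overlapped. Without the 10 sites most read over all 8 libraries the AMPKα1 libraries kept 1.86% to 2.84% and the AMPKα2 libraries 4.27% to 5.33%, and the AMPKα2 difference turned to 0.756 points, with KO at 5.02% and 5.33% and WT at 4.27% and 4.57%. No difference within a model can pass a threshold in this design.

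**Figure D1:**
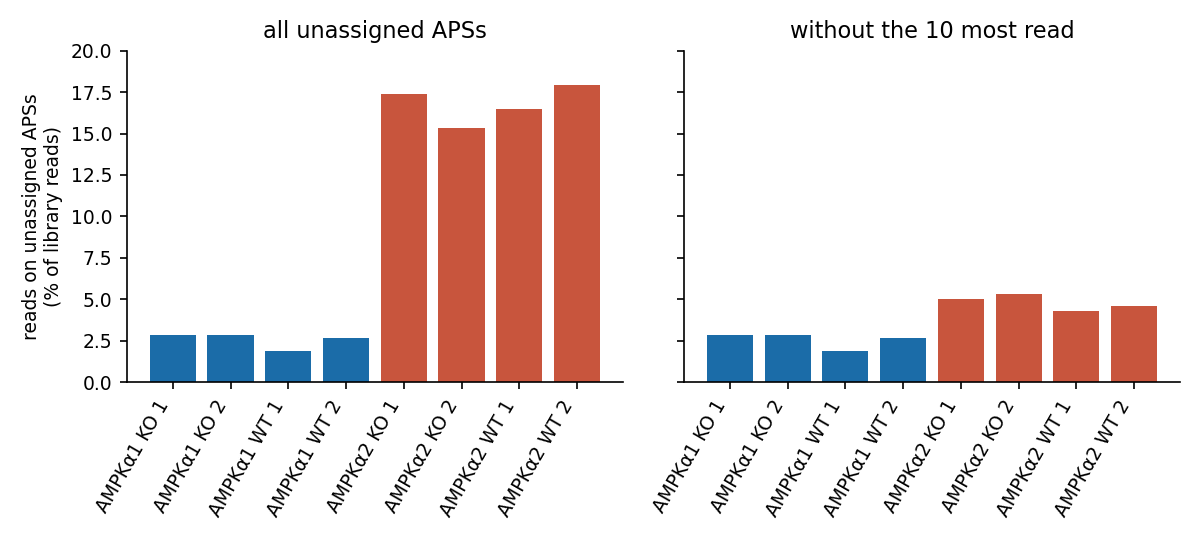
Bars give the percent of each library's reads on unassigned APSs, for the 4 AMPKα1 libraries (blue) and the 4 AMPKα2 libraries (red), with all unassigned APSs on the left and without the 10 most read on the right. The AMPKα2 libraries stand at 15.3% to 17.9% on the left and at 4.27% to 5.33% on the right.

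Beyond the deepest sites the models differed site by site. At least 90% of the reads came from AMPKα2 libraries at 1556 unassigned APSs (23.2%) and from AMPKα1 libraries at 2741 (40.9%). The same shares among assigned APSs were 14.1% and 40.1%. Of the 107 unassigned APSs with at least 1000 reads, 74 had at least 90% of their reads in AMPKα2 libraries and 36 had no read in any AMPKα1 library. Among the 2053 assigned APSs of that depth the numbers were 229 and 127. A read in all 8 libraries was found for 979 unassigned APSs, 14.6%, against 18.7% of the assigned. These shares describe the sites and were not tested, since sites of a library are not replicates.

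**Figure D2:**
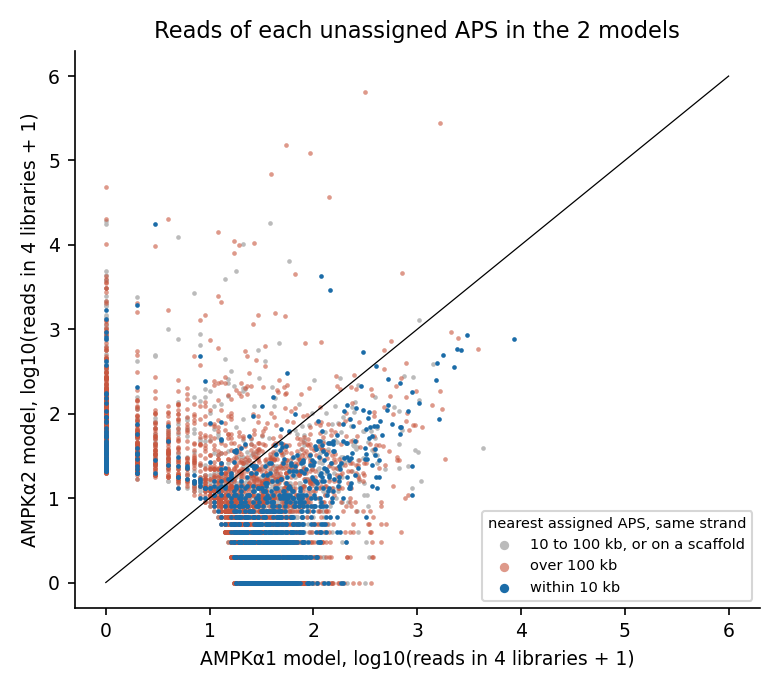
Each point is an unassigned APS, with its reads in the 4 AMPKα1 libraries on the x axis and in the 4 AMPKα2 libraries on the y axis, both as log10(reads + 1), coloured by distance to the nearest assigned APS on the same strand, and the line marks equal reads. The deepest sites lie at the top left, led by the site with 310 and 654171 reads. A column of points at 0 holds the 1137 sites without an AMPKα1 read, and a row of points at 0 the 1154 without an AMPKα2 read.

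How far the sites lay from known 3′ ends was asked next. The authors' tool gave a gene to sites within 2 kb downstream of a reference transcript, so short distances were largely removed from the unassigned set by that step. For the 6652 unassigned APSs on assembled chromosomes the nearest assigned APS of the same strand lay at a median of 96750 bases, with quartiles of 19556 and 350049 bases. Within 10 kb of one lay 17.4% (95% Wilson interval 16.5% to 18.4%), and beyond 100 kb 49.6%. Within 10 kb the neighbour was upstream far more often than downstream. An assigned APS upstream on the same strand within 10 kb was found for 976 sites, one downstream for 260, and one on the opposite strand for 665. Among the 1092 sites at 1 to 10 kb the upstream neighbour was the nearer in 82.2%, while over 100 kb this share was 49.1% of 3297 sites. Most unassigned reads of the AMPKα2 libraries were far from assigned APSs of the same strand. Sites over 100 kb away held 86.9% of the unassigned reads there and 43.0% in the AMPKα1 libraries, and sites at 1 to 10 kb held 2.68% and 26.5%. A few deep sites weigh heavily in the 86.9%. Those at chr13:9834304, chr18:73533400, chr3:5860663 and chr6:3201610 were all over 100 kb away. They had 654171, 277187, 150730 and 121592 reads in the AMPKα2 libraries.

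**Figure D3:**
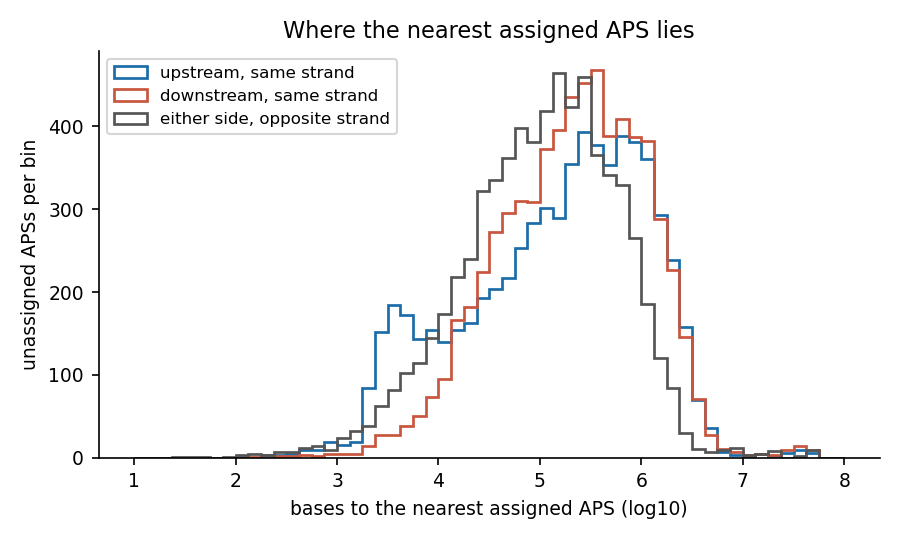
Lines count unassigned APSs by the log10 distance in bases to the nearest assigned APS upstream on the same strand (blue), downstream on the same strand (red) and on either side of the opposite strand (grey). The blue line has a separate hump below 10 kb that holds most of the 976 sites with an upstream neighbour that near, where the red line holds 260.

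Named sites downstream of a gene were mostly read in the AMPKα1 libraries. The APS of 1700020I14Rik at chr2:119607498 had 2823, 2587, 793 and 2382 reads in the AMPKα1 libraries and 90, 212, 268 and 195 in the AMPKα2 libraries, and lay 6856 bases past the last upstream APS assigned to that gene. A second APS of the gene at chr2:119603220 had 298, 1155, 137 and 838 and then 50, 153, 242 and 141 reads. The APS at chr18:36402983, in an exon that GENCODE gives to Cystm1, had 2631 reads in the AMPKα1 and 575 in the AMPKα2 libraries. Another at chr2:3531699, past the processed pseudogene Gm13186 and 3712 bases beyond Cdnf, a neurotrophic factor gene, had 3048 and 852 reads. A pair past F830016B08Rik on chromosome 18, at 60310116 and 60308424, had 2236 and 1555 reads in the AMPKα1 and 360 and 393 in the AMPKα2 libraries. The order was the opposite for 2 of the 8 most read such sites. At chr6:49236481, 5470 bases past Tra2a, a splicing factor gene, there were 118 reads in the AMPKα1 and 4335 in the AMPKα2 libraries. At chr7:19301336, 5180 bases past Rtn2, a reticulon gene, there were 145 and 2955.

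Of 37 listed muscle genes, 35 had an assigned APS and 9 had an unassigned APS within 10 kb of one on the same strand. These were 12 sites of 22 to 393 reads, with a median of 62.5, and in 11 of them the assigned neighbour was upstream. The most read lay 912 bases past an assigned APS of Ckm, the muscle creatine kinase, with 66 and 47 reads in AMPKα1 KO against 72 and 158 in WT, and 17 and 20 in AMPKα2 KO against 7 and 6 in WT. Other genes with such a site included Actn2, Mybpc1, Pvalb, Tnni2, Neb, Tnnc2 and Aldoa, for sarcomere proteins, a calcium buffer and a glycolytic enzyme. Several sites rested on single libraries. That past Tnni2, the fast inhibitory troponin, had 69 reads in AMPKα1 KO replicate 2 and 1 in the other 7 libraries together. Of the 12, 10 had enough reads for edgeR's quasi-likelihood test in the AMPKα1 and 3 in the AMPKα2 model, and none was called, when 0.00454% and 0.056% of all APSs tested were.

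GENCODE M21 was used as a second annotation. It placed 294 unassigned APSs (4.42%) in an exon of the same strand, 432 (6.49%) in an intron, 292 (4.39%) within 2 kb downstream of a gene, 323 (4.86%) antisense to a gene and 5311 (79.8%) in none of these. For assigned APSs the exon share was 42.5% and the last share 2.26%. Those in exons or introns lay in protein-coding genes for 339, lincRNA genes for 178 and processed transcripts for 62. Exonic sites held 39722 reads in the AMPKα1 and 16044 in the AMPKα2 libraries. The last class held 218013 and 896902. Of the 292 downstream sites, 58 followed a pseudogene.

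Where a GENCODE exon covered the bases before the site, they were read from its transcript. This was possible for 276 unassigned and 18940 assigned APSs. The polyA signals AATAAA or ATTAAA, searched on the transcript strand only, occurred in the last 100 bases in 45.7% (95% Wilson interval 39.9% to 51.5%) and 51.4% of them. An A-rich stretch, of 7 adenines in a row or 8 in 10 bases within the next 30 bases, was found for 71 of 185 unassigned APSs, 38.4% (31.7% to 45.6%), and for 24.1% of 13215 assigned APSs. A matching stretch describes the sequence and does not show how the 3′ end arose. These sites are few of the 6700, and no genome sequence was used here for the rest.

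Unassigned APSs were spread over all assembled chromosomes except the mitochondrial one, where all 26 APSs had a gene. On autosomes their share ran from 7.48% of APSs on chromosome 11 to 15.5% on chromosome 17. The X chromosome had 19.2% (374 sites) and the Y chromosome 70.3%, 71 of 101. The 71 Y sites had 19 to 1771 reads with a median of 35, close to the median of 36 for all unassigned APSs. Another 48 unassigned APSs lay on 33 unplaced or unlocalized scaffolds, with a median of 32 reads. The second most read of these, at position 1911408 of its scaffold, had 54, 148, 20 and 75 reads in the AMPKα1 and 6, 7, 6 and 10 in the AMPKα2 libraries. The minus strand held 54.6% of unassigned and 51.2% of assigned APSs.

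**Figure D4:**
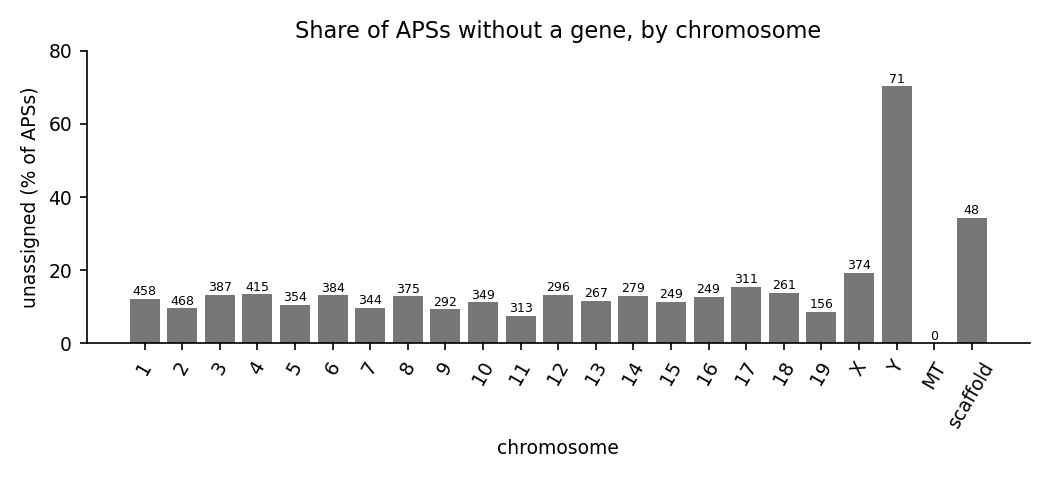
Bars give the percent of all APSs of a chromosome, of the mitochondrial genome (MT) or of the scaffolds together that had no gene, with the number of unassigned APSs above each bar. The Y chromosome stands apart at 70.3%.

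Unassigned APSs were mostly alone. They fell into 5034 windows of 100 kb, of which 3979 held 1 site and 58 held at least 5. The window with most, chr8:115500001-115600000, held 18 sites, all on the minus strand, and chr8:115400001-115500000 beside it held 12, with 11 on the minus strand. Neither holds an assigned APS. Both lie downstream of Maf, a transcription factor gene on the minus strand, and for 29 sites of the pair the nearest upstream assigned APS belonged to Gm39256. The 18 sites had 1446 reads in the AMPKα1 and 131 in the AMPKα2 libraries. Their most read site, at chr8:115556777, had 97, 104, 92 and 92 reads in the AMPKα1 libraries and 7, 11, 12 and 3 in the AMPKα2 libraries. Next came chr16:86000001-86100000, with 13 sites on the plus strand and no assigned APS, and with 1100 and 150 reads in the AMPKα1 and AMPKα2 libraries. Its most read site, chr16:86048508, had 6 and 25 reads with AMPKα1 KO against 94 and 180 with WT. The windows chr2:119600001-119700000 and chr18:60300001-60400000 held 11 sites each. Of those on chromosome 2, 10 were in exons or introns of annotated genes and lay past 1700020I14Rik APSs. All 11 on chromosome 18 lay past F830016B08Rik. No site of the 5 windows was called for KO against WT, when 0.00454% of all APSs tested were called in the AMPKα1 and 0.056% in the AMPKα2 model.

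For the plus strand of part of chromosome 1 the study lists the longest read mapped to each APS, and 155 unassigned APSs had such a read. They were searched against GENCODE transcripts with blastn. A match was found for 55, on the same strand as the transcript for 45 of them. In 9 the matching gene lay within 50 kb, with a median identity of 98.8%, and in 46 it lay elsewhere, at 88.4%. For the 46, 37 matched at most 5 genes about equally well. Reads of the 1028 assigned APSs matched a gene within 50 kb for 605, with a median identity of 96.5%. Elsewhere matches were found for 137 assigned APSs. The remaining 100 unassigned reads matched no transcript.

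Muscle transcripts were among the distant matches, listed here after their values were seen. Trdn, the triadin of the calcium release unit, lies on chromosome 10 and was matched by 4 APSs of chromosome 1, all inside its coding sequence. Ttn, the giant sarcomere spring titin of chromosome 2, was matched by 1 and Acta1 and Des by 2 each. The APS at chr1:115192010 had 24 reads in the AMPKα1 and 43 in the AMPKα2 libraries, and its read was 99.2% identical to Trdn over 251 aligned bases. The APS at chr1:67598678 had 12 and 238 reads, and its read was 82.9% identical to Ttn over 216 aligned bases. Structural and mitochondrial RNAs were matched too. The APS at chr1:72226430 had 0 and 449 reads and its read equalled Gm25360, a U2-type snRNA gene, over 189 bases. Gm25360 lies within 50 kb of that APS on chromosome 1, so this was no distant match. The APS at chr1:39519746 had 1 and 2389 reads and its read was 82.2% identical to U3 snoRNA genes over 107 aligned bases. It was counted as a match elsewhere through Rnu3b3 of chromosome 11. The APS itself lay in a GENCODE exon, at Gm24826, a snoRNA gene on the same strand of chromosome 1. It is therefore no clear case of a distant match. The APS at chr1:86004584 had 1 and 116 reads and its read was 91.7% identical to mt-Atp6, the mitochondrial ATP synthase subunit, over 230 aligned bases. The matching stretches are shown with the bases that equal the transcript in capitals. A read that fits a gene and a copy of it equally well could have come from either, and the origin of these reads was not tested.
chr1:115192010, plus strand, Trdn: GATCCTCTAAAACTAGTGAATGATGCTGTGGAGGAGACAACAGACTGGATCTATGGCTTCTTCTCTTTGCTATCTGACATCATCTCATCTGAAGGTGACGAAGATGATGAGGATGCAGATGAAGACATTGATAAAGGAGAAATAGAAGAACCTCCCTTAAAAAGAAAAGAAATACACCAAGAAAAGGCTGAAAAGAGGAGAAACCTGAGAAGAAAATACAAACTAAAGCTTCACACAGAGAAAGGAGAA
chr1:67598678, plus strand, Ttn: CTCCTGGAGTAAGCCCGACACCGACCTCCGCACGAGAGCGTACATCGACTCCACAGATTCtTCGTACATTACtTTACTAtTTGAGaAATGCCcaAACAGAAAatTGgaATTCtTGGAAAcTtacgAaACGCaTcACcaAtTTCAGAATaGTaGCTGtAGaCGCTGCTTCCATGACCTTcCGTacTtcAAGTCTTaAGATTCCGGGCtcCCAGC
chr1:72226430, plus strand, Gm25360: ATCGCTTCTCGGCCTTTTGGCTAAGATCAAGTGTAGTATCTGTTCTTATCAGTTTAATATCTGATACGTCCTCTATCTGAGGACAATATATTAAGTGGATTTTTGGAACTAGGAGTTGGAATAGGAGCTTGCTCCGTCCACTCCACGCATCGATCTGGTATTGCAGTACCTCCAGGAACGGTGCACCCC
chr1:86004584, plus strand, mt-Atp6: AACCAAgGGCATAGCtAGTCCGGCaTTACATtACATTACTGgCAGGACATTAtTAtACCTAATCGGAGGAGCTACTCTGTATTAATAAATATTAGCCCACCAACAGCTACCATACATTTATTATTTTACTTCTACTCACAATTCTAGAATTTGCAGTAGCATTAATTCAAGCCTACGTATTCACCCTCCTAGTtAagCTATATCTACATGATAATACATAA

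KO was then compared with WT within each model. In the AMPKα1 model 4486 unassigned APSs had at least 16 reads and entered edgeR's quasi-likelihood test among 44024 APSs. At an adjusted p under 0.1, 1 unassigned APS was lower in KO and 0 were higher, when 0.00454% of all APSs tested were called. At an unadjusted p under 0.05 there were 50 unassigned APSs, 1.11% of those tested, when 3.07% of all APSs tested did so. Of the 50, 17 were higher and 33 lower in KO, and with library totals in place of TMM 39 and 25. The median log2 fold change was 0.22 for unassigned and 0.02 for all APSs, and library totals moved them to 0.54 and 0.38. The unassigned median had no stable sign, with -0.08 without KO replicate 1, -0.16 without KO replicate 2 and 1.35 without WT replicate 2. Both KO libraries lay above both WT libraries at 11.6% of unassigned and 9.01% of all APSs, and below them at 12.9% and 18.2%. DESeq2 called 3 higher and 8 lower of the unassigned APSs, when it called 0.442% of 49369 APSs.

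The called site lay at position 60982 on the minus strand of a scaffold outside the assembled chromosomes. It had 0 reads in both AMPKα1 KO mice against 382 and 503 in the WT mice, so the groups did not overlap. With a floor of 3 reads over the KO libraries this is at least 345-fold lower in KO (edgeR's quasi-likelihood test, adjusted p = 0.000520). In the AMPKα2 libraries the site was nearly silent, with 1 and 0 reads for KO against 9 and 2 for WT. The call was lost when AMPKα1 KO replicate 1, KO replicate 2 or WT replicate 1 was left out, with adjusted p of 0.311, 0.331 and 0.204 from edgeR's quasi-likelihood test. The nearest APS on its strand, 2273 bases away, was assigned to Pisd-ps3, a pseudogene of phosphatidylserine decarboxylase. It had 19 and 244 reads with AMPKα1 KO against 293 and 664 with WT (adjusted p = 0.543 in edgeR's quasi-likelihood test). The next Pisd-ps3 APS, 5240 bases from the called site, had 0 and 0 with KO against 190 and 137 with WT, and was the only other APS of the whole AMPKα1 table to be called (adjusted p = 0.0364 in the same edgeR test). Both calls of that model therefore lay on a single scaffold and strand, with both KO libraries at 0. The strain of the WT controls is not stated separately, so genotype and strain cannot be told apart at these sites.

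No other unassigned APS passed in the AMPKα1 model. Among sites lower in KO the next lowest p was that of chr6:88545118, in a GENCODE exon of Kbtbd12, a kelch-domain gene, with 118 and 40 reads for KO against 398 and 388 for WT. Its log2 fold change was -3.04 ± 0.72 (SE, adjusted p = 0.543 in edgeR's quasi-likelihood test). The groups did not overlap there, but the site was picked by p in the same libraries, so this adds no support. Sites in exons of Parm1, Rab21 and Timm17a had no read in 1 group. KO against WT, the Parm1 site had 0 and 0 against 49 and 54 reads, that of Rab21 97 and 53 against 0 and 0, and that of Timm17a 48 and 78 against 0 and 0. Parm1 encodes a membrane glycoprotein, Rab21 a small GTPase of endosomes and Timm17a a subunit of the mitochondrial import machinery. With the same floor these are at least 40.1-fold lower, 42.8-fold higher and 35.9-fold higher in KO, with an adjusted p of 0.543 each in edgeR's quasi-likelihood test. At chr13:104011826 there were 3361 and 494 reads for KO against 102 and 393 for WT, a log2 fold change of 2.56 ± 0.74 (adjusted p = 0.543 in the same edgeR test) that was between 0.59 and 3.34 when a library was left out.

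In the AMPKα2 model 2476 unassigned APSs were tested among 23218. None was called in either direction by edgeR's quasi-likelihood test, when 0.056% of all APSs were, and 238 had an unadjusted p under 0.05, 9.61% of those tested, when 7.59% of all APSs did. Of the 238, 179 were higher and 59 lower in KO, but 63 were higher and 63 lower without WT replicate 1, and 270 and 38 without WT replicate 2. The median log2 fold change was 0.16 for unassigned and 0.01 for all APSs, and that of unassigned APSs was 0.05 without KO replicate 2 and 0.01 in DESeq2. Both KO libraries lay above both WT libraries at 22.0% of unassigned and 18.8% of all APSs, and below them at 16.2% and 20.9%. DESeq2 called 12 higher and 0 lower of the unassigned APSs, when it called 0.192% of 50017 APSs. The lowest p among sites higher in KO was that of chr1:100726515, with 23 and 29 reads for KO against 3 and 3 for WT, a log2 fold change of 3.36 ± 0.60 (SE, adjusted p = 0.328 in edgeR's quasi-likelihood test). Deeper sites of that group were chr16:86218772, with 495 and 581 against 222 and 163 reads, and chr17:39845225, with 319 and 368 against 167 and 86. The last lies 1216 bases past an APS of the same strand that was assigned to Rn18s-rs5, and the AMPKα1 libraries had 0 reads there. Their log2 fold changes were 1.80 ± 0.33 and 1.81 ± 0.34 (SE, adjusted p = 0.331 and 0.355 in edgeR's quasi-likelihood test). Among sites lower in KO, chrX:79119510 had 13 and 22 reads for KO against 73 and 86 for WT, a log2 fold change of -1.98 ± 0.47 (adjusted p = 0.477 in the same edgeR test). The groups did not overlap at any of these 4 sites, but the sites were picked by p in the same libraries, so this adds no support.

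The last comparison asked whether the KO effect differed between the models, in 1 fit of all 8 libraries with an interaction term over 56483 APSs. Of the 6700 unassigned APSs, 3 had a higher log2 fold change of KO over WT in the AMPKα2 model and 1 had a higher one in the AMPKα1 model at an adjusted p under 0.1, when 0.143% of all APSs were called. An unadjusted p under 0.05 was reached by 194 of them, 2.90%, and by 6.96% of all APSs. DESeq2 called 7 and 2 unassigned APSs, when it called 0.375% of all. All 4 sites rested on few reads in the AMPKα1 libraries, where each had a KO or WT library at 0. The fit also gives each APS 1 spread for both models, although the separate fits had 156% and 38.8%. The spread of the AMPKα1 libraries can be understated in it, so these calls do not settle whether the KO effect differed. The lowest p was that of chr16:17222453, with 0 and 0 reads for AMPKα1 KO against 4 and 13 for WT, and 1755 and 808 for AMPKα2 KO against 1381 and 1010 for WT.

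**Figure D5:**
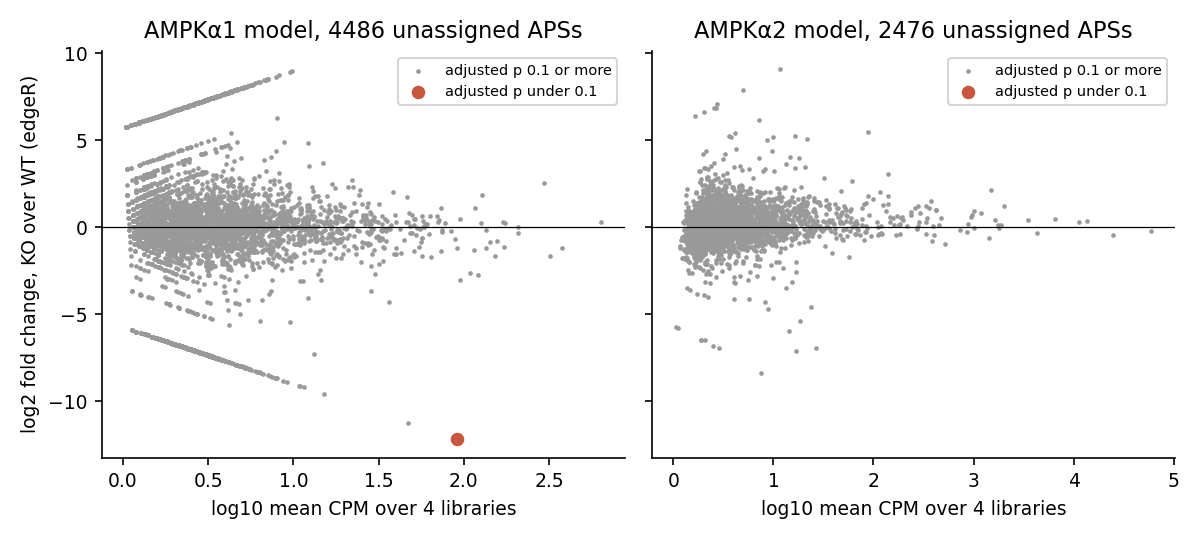
Each point is an unassigned APS tested in the AMPKα1 model (left) or the AMPKα2 model (right), with log10 of its mean CPM over 4 libraries on the x axis and edgeR's log2 fold change of KO over WT on the y axis. The red point is the called site of the AMPKα1 model, and the bands at the edges of the left panel are sites with no read in 1 group, whose fitted values depend on the prior count.

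The number of unassigned APSs called is limited by these libraries. In counts simulated from the AMPKα1 libraries, 200 sites were changed before the filter of 16 reads was applied. The filter left 26632 sites to test at a 4-fold change and 26706 at 16-fold, fewer than the 44024 of the real test. The same test recovered 0 and 19 of the 200, with 0 and 4 false calls. Changed sites below the filter count as not recovered. For the AMPKα2 libraries 20604 and 20695 sites were left to test. The test recovered 20 and 154 of the 200, with 2 and 15 false calls. A low count of calls here is therefore no sign that expression was equal.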

How the data were processed

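The expression table was deposited by the authors as raw read counts per APS in 8 libraries, with no normalization. Per the methods, the authors enriched fragmented poly(A)+ RNA, sequenced from the 3′ end with strand on an Ion PGM, trimmed the leading T run and mapped the reads with TMAP. They clustered read starts within 24 nucleotides into an APS and assigned genes with Cuffcompare. The labels name GRCm38.p5. The smallest sum of an APS was 16 reads. Library totals ranged from 2311242 to 3549156 reads, and intervals cover counting error only.

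APSs that reached 16 reads summed over a fit's libraries entered edgeR 4.0.16 (TMM, robust quasi-likelihood test, Benjamini-Hochberg adjustment, threshold 0.1) in R 4.3.3, and printed results are the unassigned APSs. Shares were tested by exact permutation. Places came from GENCODE M21, chromosome 1 reads from the study's supplement were searched with BLAST+ 2.17.0 (E value at most 1e-10, within 50 kb counted as near), and small RNA genes were read from 500 bases before to 2000 bases past their end. Counts were also tested on simulated data. Each library is 1 mouse.

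Alternatives were DESeq2 1.42.0, other size factors, read filters, a fit of all 8 libraries, a replicate block and leaving out each library. The same replicate numbers did not pair the samples, since their deviations correlated at 0.00346 in the AMPKα1 and 0.0342 in the AMPKα2 model. The library size from assigned APSs and the test between models were added after seeing the data. DESeq2 gave no adjusted p for 33500 of 49369 APSs in the AMPKα1 and 45576 of 50017 in the AMPKα2 model. The unassigned APSs and the lists were chosen with earlier results of these data known. Named sites were the 12 most read, the 5 with the lowest p per model and direction and for the interaction, the 5 most read on scaffolds, the 5 fullest windows, the 8 most read within 10 kb downstream of an assigned APS, the 5 most read over 100 kb away and those next to 37 muscle genes. The Gm24187 group and the chromosome 1 reads matching muscle and structural RNAs were chosen after their values were seen. The authors' longest reads were used for their sequence alone.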

Additional observations from a re-analysis of the deposited data

Results flagged for a closer look

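The interaction term of edgeR's quasi-likelihood test called 3 unassigned APSs with a higher log2 fold change of KO over WT in the AMPKα2 model. It called 1 with a higher one in the AMPKα1 model. That fit gives each APS 1 spread for both models, although the separate fits had 156% and 38.8%. At chr16:17222453 the SE of the difference was 1.07, while the AMPKα1 effect had an SE of 4.17 in its own fit. These calls therefore do not settle whether the KO effect differed. The difference of log2 fold changes, AMPKα2 minus AMPKα1, was 6.21 at chr16:17222453 (adjusted p = 0.0442 in edgeR's quasi-likelihood test), where the AMPKα1 reads were 0 and 0 for KO against 4 and 13 for WT. It was 7.23 at chr14:8799992 (adjusted p = 0.0551 in the same edgeR test), downstream of the processed pseudogene Gm9800, with 0 and 0 against 22 and 23 reads in the AMPKα1 and 29 and 49 against 67 and 34 in the AMPKα2 model. It was 8.43 at chr2:180405071 (adjusted p = 0.0757 in the same edgeR test), 2109 bases past an APS of Mir1a-1hg, the host gene of a muscle miRNA, with 0 and 0 against 45 and 21 reads and 16 and 34 against 34 and 13. It was -5.69 at chr6:47739880 (adjusted p = 0.0590 in the same edgeR test), with 44 and 12 against 1 and 0 reads and 625 and 1273 against 2927 and 1532. At 3 of the 4 sites both AMPKα1 KO libraries were at 0, so the size of the difference depends on the prior count. When a single library was left out, between 0 and 31 unassigned APSs had a higher log2 fold change in the AMPKα2 model.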

How the results depend on the processing

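In the AMPKα1 model, where 0 unassigned APSs were called higher and 1 lower in KO, DESeq2 called 3 and 8, and the fit of all 8 libraries 11 and 45 of 4486, when that fit called 227 and 1337 of all 44024 APSs. A filter of at least 50 reads called 0 lower, and leaving out 1 library gave 0 to 9 lower and 0 higher. It was 9 without WT replicate 2 and 0 without any other library. In the AMPKα2 model, where 0 were called in each direction, DESeq2 called 12 higher, library totals without TMM 3 higher and 1 lower, and a filter of at least 1 read 71 higher and 18 lower of 5546, when it called 425 and 132 of all 50017. The replicate block, whose numbers do not pair the samples, called 88 higher and 29 lower of 2476 in the AMPKα2 model, when it called 368 and 151 of all 23218, and the same numbers as the fit without it in the AMPKα1 model. Leaving out 1 library gave 0 to 1 higher and 0 to 18 lower, and 18 without WT replicate 1. For the interaction, with 3 and 1 calls, a filter of at least 50 reads and library totals gave 0 and 0, DESeq2 7 and 2, and leaving out 1 library 0 to 31 and 0 to 9. The 31 and 9 came without AMPKα1 KO replicate 1, and 23 and 5 without AMPKα1 KO replicate 2. The cause of these changes was not tested.

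The AMPKα2 difference in the share of reads turned from -0.835 to 0.756 points without the 10 most read sites and was -1.86 to 0.190 when 1 library was left out, with 0.190 without KO replicate 2. The 10 most read sites held 59.7% to 67.2%. The share of sites with a read, unassigned minus assigned, was 2.56 points in the AMPKα1 libraries alone and -5.62 among APSs with at least 50 reads (exact permutation p = 0.00781). The percent within 10 kb of an assigned APS was 23.6 on either strand, 14.7 upstream alone, 13.4 to neighbours with at least 50 reads and 18.9 for unassigned APSs with at least 50 reads. At that depth the exon share was 5.64%, the downstream share 5.43% and the share in no class 78.0%, and with 10 kb in place of 2 kb downstream 19.5%, antisense 3.58% and no class 66.0%. No log2 fold change of the 20 sites named for their lowest p reversed under the 236 alternatives run. These sites were picked by p in the same libraries, and several had no read in 1 group. A kept sign is therefore no check of them. With 2 libraries a group, the AMPKα1 spread limits what this test can call.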
